A study of Mus musculus with 19 samples.

Results

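The receptors for the Fc part of IgG and the small adaptor chains that signal for them were followed through CAWS administration in blood leukocytes of DBA/2 and B6 mice. CAWS is the water-soluble fraction of Candida albicans, a mannoprotein and beta-glucan preparation that induces vasculitis in mice. The genes are Fcgr1, Fcgr2b, Fcgr3, Fcgr4, Fcer1g, Tyrobp and Hcst. They were picked by name, with earlier results of these data known, and are 7 of the 27591 genes named on the arrays. Together they have 12 probes, of which all 12 passed the filter on dim probes. Male mice of each strain received CAWS intraperitoneally on consecutive days, and 0 w marks the end of the injections. The study also mentions a dose of none, and the labels do not say whether the 0 w mice had received CAWS. None of the groups is labelled as free of it. The weeks sampled were 0, 2, 4, 8 and 9 from then (written 0 w to 9 w), with 18 RNA samples in 10 groups. Every group holds 2 samples except B6 2 w and B6 9 w, which hold 1 each. Age is given as a single range for all mice. The later samples came from survivors, and DBA/2 mice die in this model.

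IgG bound to its target is read by leukocytes through Fc gamma receptors. Activating receptors carry no signalling motif of their own. They pair with the FcR gamma chain, the product of Fcer1g, whose immunoreceptor tyrosine-based activation motif (ITAM) recruits the kinase Syk. The inhibitory receptor, the product of Fcgr2b, carries the opposite kind of motif and restrains them on the same cell. Tyrobp, also called DAP12, is a second ITAM adaptor, and serves TREM and other receptors of myeloid and NK cells. Hcst, also called DAP10, has a motif that recruits phosphoinositide 3-kinase in place of an ITAM.

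Each RNA was labelled with Cy3 and hybridized alone to an Agilent array of mouse genes, and the deposited processed signal is an intensity with the background subtracted. Levels below are log2 of that signal minus the array's own 75th percentile over 11533 probes that every one of the 19 arrays showed well above background, so that 0 is a well expressed probe of that array. A difference of 1 on this scale is a 2-fold change. The 43379 spots of an array were well above background in 33.9% to 51.4% of cases. The main probes of the 7 genes were well above background on all 19 arrays, and none was saturated or marked as an outlier. A change was called past the threshold when limma's adjusted p over the 22936 tested probes was below 0.05. Replicates of a group were very close. The spread (scaled median absolute deviation) of the log2 differences between the replicates was 0.131 to 0.187 over those 11533 probes, against 0.139 between the 2 arrays that held the same RNA of B6 0 w replicate 2. The labels call the replicates biological, although 1 label of DBA/2 2 w replicate 2 also names it a technical one, and the p values measure only this small spread, which may be technical. The DBA/2 samples of 0 w to 8 w shared a slide per replicate, on slides that held no B6 sample. Strain and slide cannot be told apart when these weeks are compared between strains. The DBA/2 samples of 9 w were on other slides than those of 0 w to 8 w, so that week and slide cannot be told apart for them.

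The blood also held RNA of other cells, and its makeup moved with the weeks. A summed level is log2 of the scaled signals of the listed genes added together, so the brightest genes weigh most in it. For 5 erythroid markers it was 11.5 to 12.8 in every sample. Of 11 neutrophil markers, all 11 rose in both strains over the mean of 4 w and 8 w. The 12 monocyte or macrophage markers rose in 11 cases in DBA/2 mice, and in B6 mice 4 rose and 2 fell. Over all tested probes 9.8% passed the threshold upwards in DBA/2 mice and 7.27% in B6 mice. The 13 hepatocyte markers summed to 5.33 and 5.36 in B6 mice at 0 w and to 5.07 and 5.09 at 8 w, against -0.32 to 0.76 in every other sample. Their part in the results was not tested. In whole blood leukocytes, more cells of a type and more RNA per cell cannot be told apart.

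In DBA/2 mice all 7 genes rose from 0 w to the mean of 4 w and 8 w. The rises ran from 0.25 for Hcst to 3.16 for Fcgr1 on the log2 scale, with a median of 1.35. Over all tested probes 22.8% passed the threshold in this comparison and 9.8% passed it upwards, with a median change of -0.14. In B6 mice 5 of the 7 genes passed it, all upwards, with a median of 0.70 over the 7. There the share over all probes was 15%, 7.27% upwards, with a median of -0.08. The rise was larger in DBA/2 mice for 5 of the 7 by the test of the strain difference, against 13.2% of all probes in either direction and 6.48% with a larger change in DBA/2 mice. The 5 were Fcgr1, Fcgr3, Fcgr4, Tyrobp and Fcer1g. For Fcgr2b the strain difference was 0.11 (95% confidence interval -0.15 to 0.36), and for Hcst it was 0.12 (-0.07 to 0.32). With the replicate number, which is also the scan day, as a block Fcgr4 passed in B6 mice too (0.26, adjusted p = 0.0154). With another background correction, normexp, 5 genes passed in DBA/2 mice, 2 in B6 mice (Fcer1g and Tyrobp) and 2 for the strain difference (Fcgr1 and Fcgr3). In the deposited values without scaling between arrays the strain difference passed in the same direction only for Fcgr1, and turned to -0.50 for Fcgr2b, -0.12 for Fcer1g and -0.48 for Hcst.

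**Figure D1:**
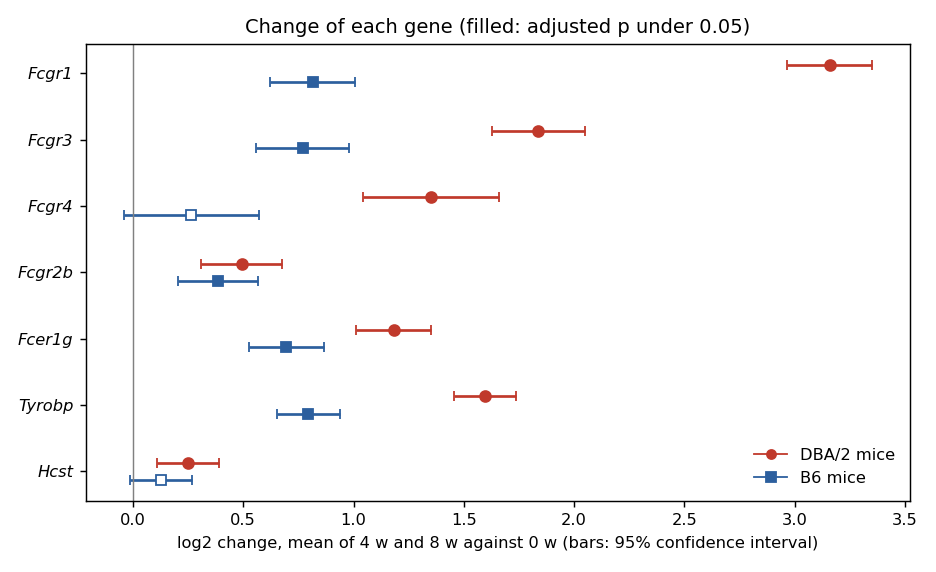
The log2 change from 0 w to the mean of 4 w and 8 w is plotted for the 7 genes, with 95% confidence intervals, in DBA/2 mice (circles) and B6 mice (squares). Filled points passed an adjusted p of 0.05, and Fcgr1 in DBA/2 mice stands farthest to the right at 3.16.

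**Figure D2:**
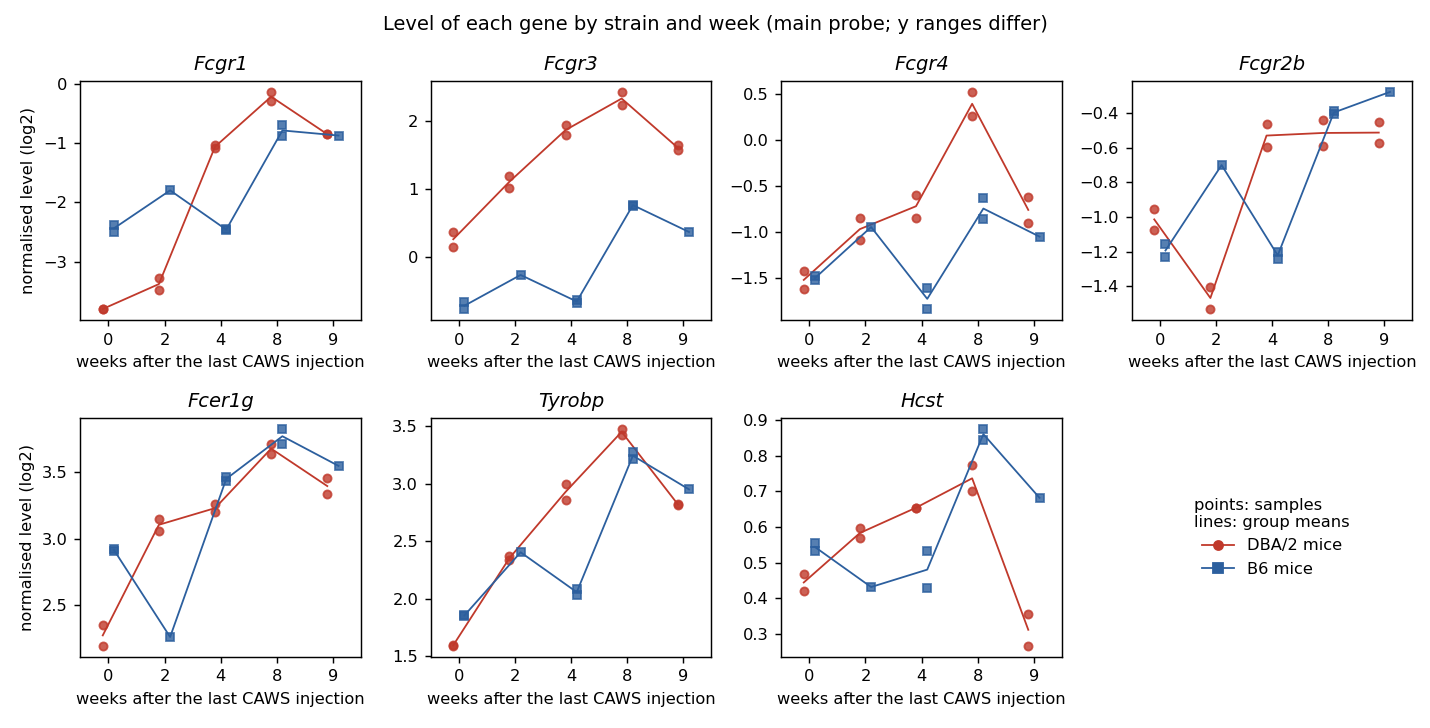
The normalised log2 level of each gene's main probe is plotted for each of the 18 samples against the weeks after the last injection, with lines through the group means. The DBA/2 means of every gene but Fcgr2b climb at each step to 8 w and are lower at 9 w. In B6 mice every gene but Fcgr2b has its highest mean at 8 w.

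Fcgr1 encodes the high-affinity receptor Fc gamma RI, found mainly on monocytes and macrophages and known to be induced by interferon gamma. Its main probe lies on chromosome 3 (mm8, chr3:96368314-96368360). The level of Fcgr1 in DBA/2 mice was -3.79 and -3.80 in week 0, -3.28 and -3.47 in week 2, -1.04 and -1.08 in week 4, -0.14 and -0.30 in week 8, and -0.85 in both samples in week 9. B6 mice had Fcgr1 levels of -2.50 and -2.38 in week 0, -1.80 in week 2, -2.47 and -2.45 in week 4, -0.88 and -0.69 in week 8, and -0.87 in week 9. Every later DBA/2 sample lay above both 0 w samples, and the largest step was from 2 w to 4 w. In B6 mice the 4 w samples lay within the range of the 0 w samples, and the 8 w and 9 w samples stood above all the others.

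The mean rise of Fcgr1 over 4 w and 8 w in DBA/2 mice was 8.93-fold (log2 3.16, SE 0.09, adjusted p = 1.05e-07), the 16th largest among 22933 probes. In B6 mice it was 1.76-fold (log2 0.81, SE 0.09, adjusted p = 0.000249). The strain difference was 2.34 (SE 0.12, adjusted p = 7.06e-06). With normexp the DBA/2 rise was 1.82 and the strain difference 1.46, both still past the threshold, while the B6 rise no longer passed. With the detected Fcgr1 probes averaged the strain difference was 1.52 and the B6 rise 1.08, and neither passed (adjusted p = 0.0614 and 0.0554). For 2 w through 9 w the DBA/2 changes were 0.42, 2.74, 3.58 and 2.95, and all 4 passed the threshold. The 2 w call was lost without DBA/2 0 w replicate 1, DBA/2 0 w replicate 2 or DBA/2 2 w replicate 1 (adjusted p = 0.0828 to 0.13). The B6 changes were 0.64, -0.02, 1.65 and 1.56, of which -0.02, that of 4 w, did not pass. At 0 w DBA/2 mice had the lower level, by 1.36 on the log2 scale (adjusted p = 8.4e-06), and at 4 w the higher, by 1.40 (adjusted p = 5.79e-06). Over the alternative settings the 0 w difference ran from -1.42 to -0.54, and its call was lost in 1. The 4 w difference ran from 0.515 to 2.20, and its call was lost in 2. At 9 w the strains differed by 0.02 (95% confidence interval -0.25 to 0.30). A second Fcgr1 probe was well above background on only 7 of 19 arrays, and gave 2.05 in DBA/2 mice and 1.35 in B6 mice, neither past the threshold.

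Fcgr3 encodes Fc gamma RIII, the low-affinity activating receptor of neutrophils, monocytes, macrophages and NK cells. Its main probe lies on chromosome 1 (mm8, chr1:172888191-172888266). DBA/2 mice had Fcgr3 levels of 0.37 and 0.15 in week 0, 1.19 and 1.02 in week 2, 1.94 and 1.80 in week 4, 2.43 and 2.23 in week 8, and 1.65 and 1.57 in week 9. The B6 levels of Fcgr3 were -0.66 and -0.77 in week 0, -0.26 in week 2, -0.67 and -0.63 in week 4, 0.77 and 0.76 in week 8, and 0.37 in week 9. The DBA/2 groups did not overlap each other and kept the order 0 w, 2 w, 9 w, 4 w, 8 w. The B6 samples of 4 w and 0 w overlapped, and the highest B6 sample lay below the lowest DBA/2 sample of 2 w.

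The DBA/2 rise of Fcgr3 averaged over 4 w and 8 w was 3.57-fold (log2 1.84, SE 0.09, adjusted p = 1.3e-06), against 1.71-fold in B6 mice (log2 0.77, SE 0.09, adjusted p = 0.000584). The strain difference was 1.07 (SE 0.13, adjusted p = 0.000859). For 2 w through 9 w the changes were 0.85, 1.61, 2.07 and 1.35 in DBA/2 mice, all past the threshold. They were 0.45, 0.06, 1.48 and 1.08 in B6 mice, of which those of 8 w and 9 w passed it. DBA/2 mice had the higher level at every week, by 0.98, 1.37, 2.52, 1.57 and 1.24 for 0 w through 9 w, and each passed the threshold. The second Fcgr3 probe (mm8, chr1:172890673-172890732) gave a like rise in DBA/2 mice, 1.95, and a strain difference of its change of 1.34, past the threshold. Its level, however, differed between strains by only 0.25 in week 0 and 0.35 in week 2, neither past the threshold, and by 2.00, 1.17 and 0.79 in the later weeks. The size of the strain difference in level thus depended on the probe. Fcgr3 and Fcgr2b have closely similar sequences, and whether the probes tell them apart was not tested.

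Fcgr4 encodes Fc gamma RIV, an activating receptor of neutrophils and monocytes that binds IgG2a and IgG2b, and is listed on the array under its older name Fcrl3. Its only probe lies on chromosome 1 (mm8, chr1:172866282-172866341). The level of Fcgr4 in DBA/2 mice was -1.42 and -1.61 in week 0, -0.84 and -1.09 in week 2, -0.60 and -0.84 in week 4, 0.52 and 0.26 in week 8, and -0.62 and -0.90 in week 9. B6 mice had Fcgr4 levels of -1.47 and -1.52 in week 0, -0.94 in week 2, -1.61 and -1.83 in week 4, -0.63 and -0.85 in week 8, and -1.05 in week 9. Only the DBA/2 samples of 8 w stood clear of the rest, while those of 4 w and 9 w overlapped each other and B6 at 8 w. The DBA/2 rise was 2.55-fold (log2 1.35, SE 0.14, adjusted p = 0.000113), and the B6 value of 0.26 did not pass (adjusted p = 0.251). The strain difference was 1.09 (SE 0.19, adjusted p = 0.00589). For 2 w through 9 w the DBA/2 changes were 0.55, 0.80, 1.91 and 0.76, all past the threshold, and the B6 changes 0.55, -0.22, 0.75 and 0.45, of which that of 8 w passed. The DBA/2 call at 2 w was lost without any one of 10 replicates, among them all 4 DBA/2 samples of 0 w and 2 w and the 6 B6 samples of 0 w, 4 w and 8 w (adjusted p = 0.0527 to 0.224). That at 4 w was lost without DBA/2 0 w replicate 2 or DBA/2 4 w replicate 1 (adjusted p = 0.061 to 0.0678). The B6 8 w call was lost without B6 8 w replicate 1 (adjusted p = 0.0611).

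The bases just before the start sites of these receptors are printed, for the activating ones and for the inhibitory one. They come from RefSeq on GRCm38.p6 and cover the 250 bases before the start, 5′ to 3′, with matches in capitals. Fcgr1 is at chr3:96293970-96294219 (minus strand), Fcgr3 at chr1:171059404-171059653 (minus strand) for its first listed start, Fcgr4 at chr1:171018676-171018925 (plus strand) and Fcgr2b at chr1:170976072-170976321 (minus strand).
Fcgr1: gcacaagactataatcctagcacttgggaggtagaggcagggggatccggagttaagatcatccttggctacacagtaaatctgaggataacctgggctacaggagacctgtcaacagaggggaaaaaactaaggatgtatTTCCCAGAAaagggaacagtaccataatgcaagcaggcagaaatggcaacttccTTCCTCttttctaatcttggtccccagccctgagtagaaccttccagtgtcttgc
Fcgr3: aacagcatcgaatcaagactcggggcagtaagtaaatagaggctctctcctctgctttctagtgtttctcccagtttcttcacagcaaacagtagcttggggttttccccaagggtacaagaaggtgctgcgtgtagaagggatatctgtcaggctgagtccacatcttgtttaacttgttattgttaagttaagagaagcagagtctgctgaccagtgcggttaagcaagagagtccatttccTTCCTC
Fcgr4: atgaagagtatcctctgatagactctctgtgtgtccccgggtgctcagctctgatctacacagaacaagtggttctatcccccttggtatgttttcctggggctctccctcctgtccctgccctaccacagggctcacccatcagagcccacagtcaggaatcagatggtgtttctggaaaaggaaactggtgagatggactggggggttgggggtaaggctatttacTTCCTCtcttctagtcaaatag
Fcgr2b: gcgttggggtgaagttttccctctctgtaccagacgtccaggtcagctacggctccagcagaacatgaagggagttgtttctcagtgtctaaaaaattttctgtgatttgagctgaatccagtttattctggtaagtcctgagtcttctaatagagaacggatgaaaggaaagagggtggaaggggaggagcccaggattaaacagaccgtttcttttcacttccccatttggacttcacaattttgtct
Matches were sought on both strands to 2 short strings, TTCNNNGAA, the core of a STAT element of the kind used by interferon gamma, and GAGGAA, the core recognised by PU.1 and other ETS factors. Fcgr1 held TTCNNNGAA once, from position -109 counted from the start site, a string found in 7.02% of 32851 promoter windows of this length. The windows of Fcgr1, Fcgr3 and Fcgr4 each held GAGGAA once, on the opposite strand and so printed as its reverse complement, from positions -55, -6 and -22, against 23.3% of all windows. The matches do not overlap. In Fcgr2b, Fcer1g and Hcst neither string was found. All of these also rose in DBA/2 mice over the mean of 4 w and 8 w, by 0.49, 1.18 and 0.25. A match is a description of letters and not of binding. Only the reference sequence was searched, and the sequence of DBA/2 mice was not examined. Of the 7 genes 6 had an entry, all but Tyrobp.

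Fcgr2b, the inhibitory receptor of B cells, monocytes and neutrophils, was the only one of the 7 genes that fell at 2 w in DBA/2 mice. Its main probe, printed at 10 spots per array (mm8, chr1:172797532-172797591), agreed between these spots with an SD of 0.05 to 0.13 on the log2 scale. DBA/2 mice had Fcgr2b levels of -0.95 and -1.08 in week 0, -1.40 and -1.53 in week 2, -0.46 and -0.60 in week 4, -0.44 and -0.59 in week 8, and -0.45 and -0.57 in week 9. The B6 levels of Fcgr2b were -1.16 and -1.23 in week 0, -0.70 in week 2, -1.20 and -1.24 in week 4, -0.39 and -0.41 in week 8, and -0.28 in week 9. Both DBA/2 samples of 2 w were the lowest of all 18, and from 4 w on the DBA/2 samples formed 1 overlapping range.

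At 2 w in DBA/2 mice Fcgr2b fell by 0.45 on the log2 scale (adjusted p = 0.0105), while Fcgr1, Fcgr3, Fcgr4, Fcer1g and Tyrobp rose. This fall was lost as a call without DBA/2 0 w replicate 1 or DBA/2 2 w replicate 2 (adjusted p = 0.0751 to 0.0835). The single B6 sample of 2 w was 0.49 above 0 w (adjusted p = 0.0197), and the strain difference at 2 w was -0.95 (SE 0.15, adjusted p = 0.00216). The summed level of 10 B cell markers moved the same way at 2 w, from 4.82 and 4.92 at 0 w to 3.93 and 4.01 in DBA/2 mice, and from 4.44 in both 0 w samples to 4.89 in B6 mice, the highest B6 value. Over the mean of 4 w and 8 w 6 of the 10 fell in DBA/2 mice and none passed the threshold in B6 mice. Of all probes 22.8% and 15% passed it in either direction. Over the 18 samples the level of the B cell markers had a Pearson's r of 0.13 with Fcgr2b. Their part in the result was not tested. Averaged over 4 w and 8 w the rise was 1.41-fold in DBA/2 mice (log2 0.49, SE 0.08, adjusted p = 0.00207) and 1.31-fold in B6 mice (log2 0.38, SE 0.08, adjusted p = 0.0112). The B6 call was lost without B6 0 w replicate 1 or B6 0 w replicate 2 (adjusted p = 0.0561 to 0.0993), and with the slide as a block (0.36, adjusted p = 0.0748). The call at 4 w in DBA/2 mice was lost without DBA/2 0 w replicate 2 or DBA/2 4 w replicate 1 (adjusted p = 0.0554 to 0.0634), and that at 2 w in B6 mice without B6 0 w replicate 2 (adjusted p = 0.0892). The other Fcgr2b probes differed in size. The neighbouring one (mm8, chr1:172797671-172797730) gave 0.24 in DBA/2 mice and -0.35 at 2 w, neither past the threshold. The one that lies farther 5′ on this minus-strand gene (mm8, chr1:172802377-172802436) gave 1.35, past it, and 0.04 at 2 w, not past it. With that probe the strain difference of the change was 0.96 and passed the threshold (adjusted p = 0.0485), where the main probe gave 0.11. The calls for the fall at 2 w and for the strain difference thus depended on the probe.

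**Figure D3:**
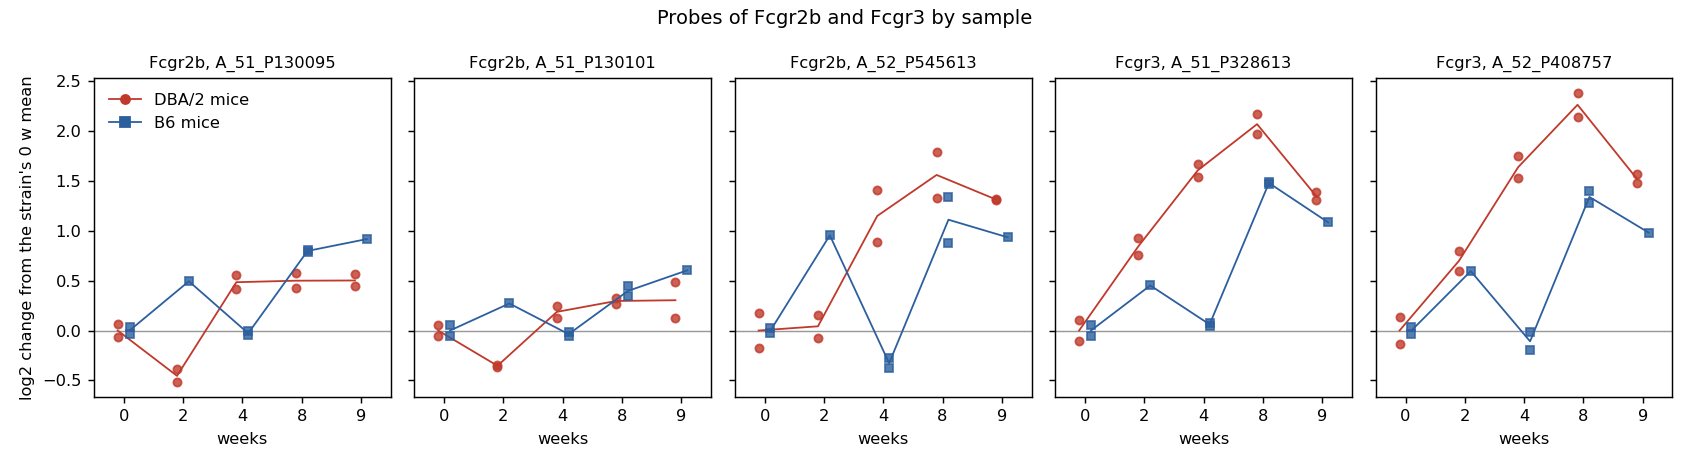
The log2 change from the strain's own 0 w mean is plotted by week for the 3 probes of Fcgr2b and the 2 probes of Fcgr3, each point a sample. The mean DBA/2 rise at 8 w is 1.56 with the third Fcgr2b probe against 0.50 and 0.30 with the other 2, and 2.07 and 2.26 with the Fcgr3 probes.

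The activating receptors were also set against Fcgr2b within each sample, as the log2 difference of the main probes and its change from the strain's 0 w mean, with no test. For Fcgr3 this was 1.28 to 1.32 in DBA/2 mice at 2 w, 1.12 in both samples of 4 w, 1.55 to 1.59 in those of 8 w and 0.82 to 0.87 in those of 9 w, against -0.04 to 0.68 in all later B6 samples. For Fcgr1 it was 0.84 to 0.90 at 2 w and 3.07 to 3.09 at 8 w in DBA/2 mice, and at most 0.96 in B6 mice. For Fcgr4 it was 0.95 to 1.06, 0.26 to 0.37, 1.35 to 1.46 and 0.18 to 0.33 for 2 w through 9 w in DBA/2 mice, and from -0.47 to 0.06 in later B6 samples. With the main and the neighbouring Fcgr2b probe the later DBA/2 samples lay above the B6 samples of the same week for each receptor. With the third probe this held at every week for Fcgr1 alone. There Fcgr4 was at -0.49 to -0.22 in DBA/2 mice against 0.04 to 0.16 in B6 mice at 4 w, and at -0.69 to -0.42 against -0.49 at 9 w. Fcgr3 overlapped between strains at 4 w and 8 w with that probe, and at 9 w was at -0.01 to 0.07 in DBA/2 mice against 0.15. The direction thus depended on the Fcgr2b probe for Fcgr4 at 4 w and for Fcgr3 at 9 w, where B6 has a single sample. Whether the strains overlapped depended on it for Fcgr4 at 9 w and Fcgr3 at 4 w and 8 w. At 2 w for both genes, and at 8 w for Fcgr4, DBA/2 samples lay above B6 samples with every probe. The comparison of probes was made after seeing the data.

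**Figure D4:**
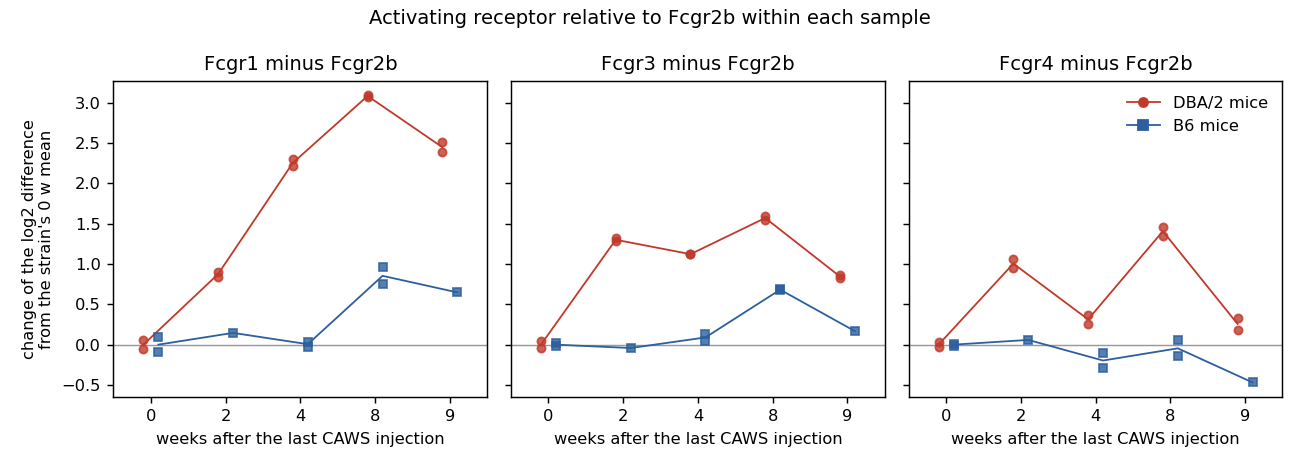
The change from 0 w of the log2 difference between an activating receptor and Fcgr2b is plotted by week for each sample, with the main Fcgr2b probe. With this probe DBA/2 samples (circles) lie above 0 at every later week for all 3 receptors. The B6 samples of Fcgr4 stay between -0.47 and 0.06 with it. With the third probe, which is not plotted, the DBA/2 samples of Fcgr4 lie below 0 at 4 w and 9 w.

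Fcer1g encodes the gamma chain that the activating receptors share. Its main probe lies on chromosome 1 (mm8, chr1:173066338-173066397). The level of Fcer1g in DBA/2 mice was 2.35 and 2.20 in week 0, 3.15 and 3.06 in week 2, 3.26 and 3.20 in week 4, 3.72 and 3.64 in week 8, and 3.46 and 3.34 in week 9. B6 mice had Fcer1g levels of 2.93 and 2.91 in week 0, 2.26 in week 2, 3.44 and 3.47 in week 4, 3.71 and 3.83 in week 8, and 3.55 in week 9. The single B6 sample of 2 w stood apart, down with the DBA/2 samples of 0 w, and its fall of 0.65 (adjusted p = 0.00281) was -0.71 with the second probe. That sample was also the lowest in platelet markers, whose summed level was 6.85 there and 7.98 to 8.75 in all others. Over the 18 samples the platelet level had a Pearson's r of 0.69 with Fcer1g, and its part in the result was not tested.

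Over the mean of 4 w and 8 w Fcer1g rose 2.27-fold in DBA/2 mice (log2 1.18, SE 0.08, adjusted p = 5.32e-06) and 1.62-fold in B6 mice (log2 0.70, SE 0.08, adjusted p = 0.00028). The strain difference was 0.49 (SE 0.11, adjusted p = 0.0164), but turned to -0.12 in the deposited values without scaling between arrays. It was also lost as a call without B6 0 w replicate 1, B6 0 w replicate 2 or DBA/2 0 w replicate 2 (adjusted p = 0.0539 to 0.0761), and with the slide as a block (0.51, adjusted p = 0.0526). At 0 w the level was lower in DBA/2 mice by 0.64 (adjusted p = 0.00041), and without scaling it was higher by 0.18. The second probe gave a strain difference of 0.38 (adjusted p = 0.0209). For 2 w through 9 w the DBA/2 changes were 0.83, 0.96, 1.41 and 1.12, all past the threshold.

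Tyrobp and Hcst are neighbours on chromosome 7, with probes at chr7:30124392-30126119, a span far longer than a probe, and chr7:30126581-30126881 on mm8. Tyrobp levels in DBA/2 mice were 1.60 and 1.59 in week 0, 2.37 and 2.34 in week 2, 3.00 and 2.86 in week 4, 3.48 and 3.43 in week 8, and 2.83 and 2.82 in week 9. Its B6 levels were 1.85 and 1.86 in week 0, 2.41 in week 2, 2.03 and 2.08 in week 4, 3.28 and 3.21 in week 8, and 2.95 in week 9. No later group of either strain overlapped its 0 w samples. The rise was 3.02-fold in DBA/2 mice (log2 1.60, SE 0.06, adjusted p = 2.92e-07) and 1.74-fold in B6 mice (log2 0.80, SE 0.06, adjusted p = 4.14e-05), with a strain difference of 0.80 (SE 0.09, adjusted p = 0.00048). For 2 w through 9 w the changes were 0.76, 1.33, 1.86 and 1.23 in DBA/2 mice, all past the threshold, and 0.55, 0.20, 1.39 and 1.10 in B6 mice, all but that of 4 w. The level at 0 w was lower in DBA/2 mice by 0.26 (adjusted p = 0.0217), a call lost without any of the 4 samples of 0 w (adjusted p = 0.0791 to 0.0917) and turned to 0.56 higher without scaling.

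Hcst moved little. DBA/2 mice had Hcst levels of 0.42 and 0.47 in week 0, 0.57 and 0.60 in week 2, 0.65 in both samples in week 4, 0.70 and 0.77 in week 8, and 0.36 and 0.27 in week 9. The B6 levels of Hcst were 0.53 and 0.56 in week 0, 0.43 in week 2, 0.53 and 0.43 in week 4, 0.84 and 0.88 in week 8, and 0.68 in week 9. The DBA/2 samples of 9 w were the lowest of all, and the B6 samples of 8 w the highest. The DBA/2 rise averaged over 4 w and 8 w was 1.19-fold (log2 0.25, SE 0.06, adjusted p = 0.0176), and was lost without DBA/2 0 w replicate 1 or DBA/2 0 w replicate 2 (adjusted p = 0.0696 to 0.124). In B6 mice the value was 0.13 (adjusted p = 0.228). The 8 w rise passed in both strains, by 0.29 in DBA/2 mice and 0.32 in B6 mice. Each of these calls was lost without either 0 w replicate of its strain, or without replicate 2 of its 8 w samples, and the B6 one also with the slide as a block (0.42, adjusted p = 0.0954).

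Week by week, 25 of the 28 pairs of gene and week in DBA/2 mice differed from 0 w, 24 upwards and 1, Fcgr2b at 2 w, downwards. The genes called were 6 for 2 w (15.7% of all probes), 6 for 4 w (14.8%), 7 for 8 w (23.9%) and 6 for 9 w (27.6%). In B6 mice 17 of 28 pairs differed, 16 upwards and 1, Fcer1g at 2 w, downwards. These were 4 genes for 2 w (13% of all probes), 1 for 4 w (15.6%), 7 for 8 w (21.2%) and 5 for 9 w (9.3%). With the replicate block Fcgr3 at 2 w and Fcgr4 at 2 w and 9 w also passed in B6 mice, at 0.40, 0.45 and 0.55, and with the slide block Fcer1g at 9 w no longer did (0.58, adjusted p = 0.0684). Within each scan day the 28 DBA/2 changes had the same sign as on the other day, and the days differed by at most 0.18. Of 14 B6 changes with samples on both days 12 did, all but Fcgr1 and Fcgr3 at 4 w. The B6 values over the mean of 4 w and 8 w therefore average a week with 1 called gene, Fcer1g, and a week with 7. Both B6 groups of 0 w and 8 w had high hepatocyte markers. Between B6 groups where these were low, 9 w against 4 w, 4 genes were higher against 6.59% of all probes called, namely Fcgr1 by 1.59, Fcgr3 by 1.02, Fcgr2b by 0.94 and Tyrobp by 0.89. The 6.59% counts probes called in either direction, and B6 9 w is a single sample. Hepatocyte markers were also low in the single B6 sample of 2 w (0.56), which was not compared with 4 w or 9 w. The comparison of 9 w with 4 w was chosen after the marker values were seen. Whether the B6 rise holds apart from the hepatocyte markers was not tested.

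The change from 0 w differed between strains for 14 of 28 pairs. At 2 w these were Fcer1g and Fcgr2b (15.2% of all probes), at 4 w all but Fcer1g and Hcst (11.8%), at 8 w all but Fcgr2b and Hcst (17.5%), and at 9 w Fcgr1 and Fcer1g (12.3%). Of these, Fcgr2b at 4 w was lost without any one of 9 replicates and Fcer1g at 9 w without any one of 14, all named in the closing section. Without scaling between arrays the differences at 8 w of Fcgr3, Fcgr4, Fcer1g and Tyrobp and that of Fcer1g at 9 w changed sign. Fcgr3 at 8 w was lost without B6 0 w replicate 1, B6 8 w replicate 1 or 2, DBA/2 0 w replicate 2 or DBA/2 8 w replicate 1. Fcgr4 at 4 w was lost without B6 0 w replicate 1, B6 4 w replicate 2, DBA/2 0 w replicate 2 or DBA/2 4 w replicate 1, and Fcer1g at 8 w without B6 8 w replicate 1 or DBA/2 0 w replicate 2. With the slide as a block the differences at 8 w of Fcer1g (0.55, adjusted p = 0.0626) and Tyrobp (0.57, adjusted p = 0.0654) were lost. With the replicate block 4 more passed, Fcgr3 at 2 w (0.45), Fcer1g at 4 w (0.42) and Fcgr2b at 8 w (-0.30) and 9 w (-0.46). The level itself differed between strains for 18 of 35 pairs. The genes that differed numbered 4 for 0 w (32.6% of all probes), 4 for 2 w (23.9%), 5 for 4 w (32.1%), 3 for 8 w (25.4%) and 2 for 9 w (13.2%). The 3 at 8 w were Fcgr1, Fcgr3 and Fcgr4, all higher in DBA/2 mice. Of the 2 at 9 w, Hcst, lower in DBA/2 mice by 0.37, was lost without DBA/2 9 w replicate 2 (adjusted p = 0.0725) and with the slide block (adjusted p = 0.0978). With the replicate block the level of Fcgr2b at 0 w (0.18) and 9 w (-0.28) and of Tyrobp at 8 w (0.21) passed too. Between neighbouring weeks of DBA/2 mice 14 of 21 pairs differed. From 2 w to 4 w 4 genes rose (9.28% of all probes), led by Fcgr1 at 2.32. From 4 w to 8 w 5 rose (8.35%), led by Fcgr4 at 1.11. Of these, Fcgr3 and Fcer1g were lost without any one of the 4 samples compared (adjusted p = 0.0529 to 0.172). From 8 w to 9 w 5 fell (17.4%), again led by Fcgr4, by 1.15, while Fcgr2b moved by 0.00 (95% confidence interval -0.21 to 0.21). With the replicate block Fcgr4 from 2 w to 4 w (0.25) and Fcer1g from 8 w to 9 w (-0.28) passed too.

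The genes most alike in level over the 18 samples, among 12185 probes, differed from one member to another. For Fcgr1 they were Clec4a3, Rnpep and Tnfrsf1b, with Pearson's r of 0.961 to 0.964. For Fcgr3 they were Tirap, Nudt4 and Tctex1d2, with r of 0.979 to 0.985, and for Fcgr4 Eif1a, Sat1 and Hsd17b11, with r of 0.954 to 0.966. For Fcer1g they were Igtp, an unnamed transcript and B2m (0.968 to 0.974), and for Tyrobp Pilra, Lpcat2 and Slc2a6 (0.976 to 0.984). Fcgr2b (Bloc1s2, Ifi204 and Naaa, 0.918 to 0.924) and Hcst (Zfand5, Vps29 and Ccny, 0.864 to 0.901) had less similar partners. Among the members, Fcgr1 was most like Tyrobp and Fcgr2b (r of 0.90 and 0.85), and Fcgr3 most like Fcgr4 and Tyrobp (0.85 and 0.75). These are descriptions, since the samples share arrays and scaling.

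The receptors that use the same adaptors are given from a list drawn up from general knowledge. For its groups, and for the interferon and marker lists below, the share over all tested probes is the comparison. It was 22.8% in DBA/2 mice, 9.8% upwards, and 15% in B6 mice, 7.27% upwards. Groups with few genes called, such as the inhibitors, stood near these shares. Of 8 receptors that pair with Fcer1g, 7 rose in DBA/2 mice over the mean of 4 w and 8 w, with a median of 1.74 against -0.14 over all probes. The largest was Clec4e, the lectin receptor Mincle, at 2.68, and the one not past the threshold was Oscar at -0.10. In B6 mice 5 rose and 1 fell. Of 11 receptors with a tested probe that pair with Tyrobp or Hcst, 6 rose in DBA/2 mice, from Clec5a at 2.04, and in B6 mice 4 rose and 3 fell. Among 10 kinases 3 rose and 1 fell in DBA/2 mice, Btk by 0.25, and in B6 mice 4 rose and 2 fell. Of 16 linkers and effectors 6 rose, led by Cybb at 0.69, and 2 fell, Malt1 by 0.91 and Blnk by 0.36. Of 9 inhibitors 2 rose, Ptpn6 by 0.45 and Dok2 by 0.42. The 6 other ITAM adaptors, subunits of the T cell and B cell receptors, held no gene that rose and 4 that fell, Cd79b by 0.66 the most. Of 8 tested Fc receptors and subunits of other kinds 3 rose, Fcgrt by 0.75 the most, and 3 fell, Fcrla by 0.85 the most. In B6 mice 1 linker or effector rose, and of the inhibitors 1 rose and 1 fell. There 2 of the other ITAM adaptors fell, and 1 of the other Fc receptors and subunits. Fcamr and Fcrl5 were not tested, since none of the 18 samples was well above background.

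Targets of type II interferon, to which Fcgr1 is known to belong, were set beside the receptors. Of 14 such genes 13 rose in DBA/2 mice, with a median of 0.98, and Ciita fell. In B6 mice 2 rose and 3 fell. Their summed level ran from 3.91 to 5.32 in DBA/2 samples and from 3.95 to 4.62 in B6 samples. Over the 18 samples Fcgr4 had the highest Pearson's r with it among the 7 genes, 0.90, and Hcst the lowest, 0.48. For Tyrobp it was 0.87 and for Fcgr1 0.81.

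**Figure D5:**
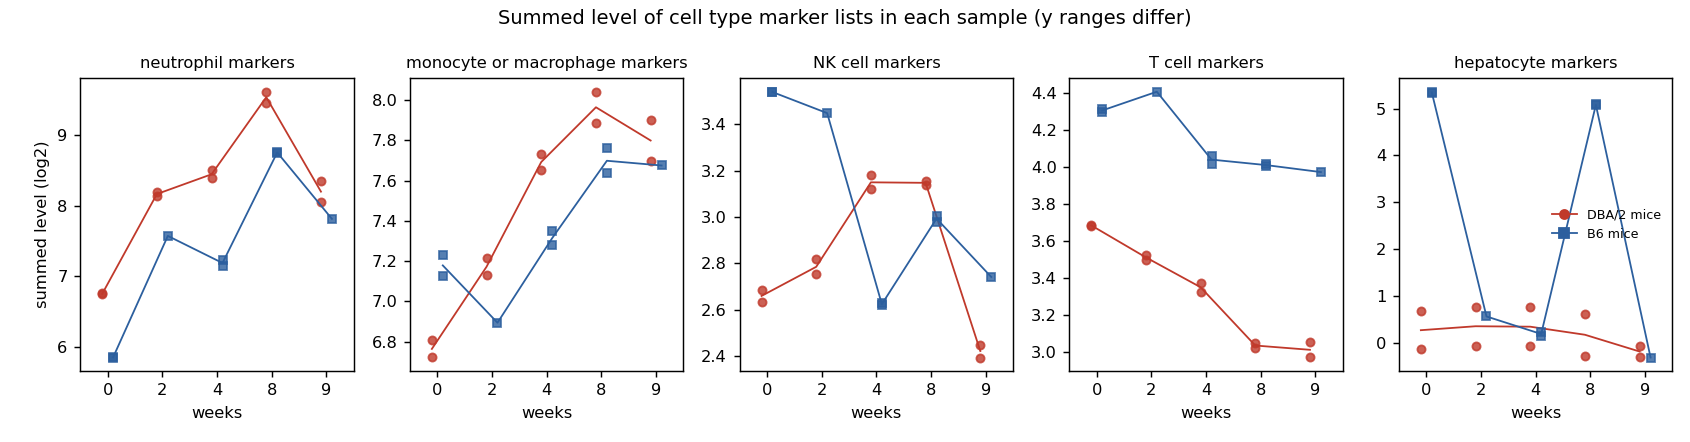
The summed normalised level of 5 cell type marker lists is plotted by week for each sample, on a log2 scale. Neutrophil markers rise in both strains to a peak at 8 w, and hepatocyte markers are high only in B6 mice at 0 w and 8 w.

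The marker lists also moved with the members. Across the 18 samples the summed neutrophil level had a Pearson's r of 0.91 with Tyrobp, 0.87 with Fcgr4, 0.85 with Fcgr3 and 0.69 with Fcgr1. The monocyte or macrophage level had 0.90 with Fcgr1, 0.89 with Tyrobp, 0.87 with Fcer1g and 0.69 with Fcgr3. The brightest genes weigh most in these summed levels, so the r values need not hold for each gene of a list. The neutrophil level ran from 6.74 to 9.62 in DBA/2 samples and from 5.84 to 8.76 in B6 samples. The monocyte or macrophage level ran from 6.72 to 8.04 and from 6.89 to 7.76. The median neutrophil marker rose by 2.24 in DBA/2 mice and by 2.20 in B6 mice. The median monocyte or macrophage marker rose by 1.49 in DBA/2 mice, and was 0.08 in B6 mice. The DBA/2 rise of Fcgr1, 3.16, was above that of every tested gene in both lists, of which Ngp was the highest at 2.79. The Fcgr1 rise was 1.82 with normexp, and it was smaller with its second probe, where it did not pass the threshold. NK cell markers, of cells that also use these adaptors, rose in 7 of 10 cases in DBA/2 mice and fell in 8 of 10 in B6 mice. Of 9 tested splenic or tissue macrophage markers, 6 rose in DBA/2 mice with a median of 1.63, and in B6 mice 2 rose and 5 fell with a median of -0.80. The change differed between strains for 6 of the 9, against 13.2% of all probes, and the summed level had an r of 0.84 with Fcgr3. The T cell level had an r of -0.90 with Fcgr3, and did not overlap between strains, the highest DBA/2 sample being at 3.69 and the lowest B6 sample at 3.97. Of the 10 T cell markers 7 fell in DBA/2 mice and 5 in B6 mice. The part of the cell makeup in the members' changes was not tested.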

How the data were processed

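Leukocyte RNA of DBA/2 and B6 mice was measured on 19 Agilent G4122F arrays. The authors deposited the Feature Extraction 9.5.3.1 output of each array, in which the processed signal is an intensity, background-subtracted and detrended within the array. A value table they also deposited holds this intensity averaged over spots, with no scaling between arrays.

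Control and outlier spots were left out and the spots of a probe averaged. From each log2 value the array's 75th percentile over 11533 probes, those well above background everywhere, was subtracted. The 2 arrays of B6 0 w replicate 2, which were on different slides, were averaged. Of 41174 probes, 22936 were well above background in at least 2 of 18 samples, and entered limma 3.58.1 under R 4.3.3 (lmFit and eBayes, a mean per group, 8 residual degrees of freedom, prior 1.37). Probes without a value in a group were left out of its comparisons. Each of the 23 comparisons had its own Benjamini-Hochberg adjustment over all tested probes, with a threshold of 0.05. Intervals are 95% confidence intervals of the fit, and the number of arrays limits the precision. A gene is given by its probe with the highest mean level. The procedure was tested on simulated data.

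Gene names came from the accession for 24496 probes, the symbol for 6234, a synonym for 2386 (RefSeq gene table of GRCm38.p6) and the files alone for 8058. Probe positions are on mm8, as the files give them. The members and lists were chosen with earlier results of these data known. The 3 most alike genes were named by Pearson's r. From a pathway list the largest and smallest DBA/2 change could be named, and in several lists only genes past the threshold were. Other genes of these lists were named after their values were seen. There were 35 alternative settings, and 1 comparison and the other Fcgr2b probes were added after seeing the data. The replicate number coincides with the scan day. Replicate differences correlated between groups at 0.73 to 0.82 among DBA/2 0 w to 8 w and 0.36 to 0.41 among B6 groups, so that the numbers pair these samples within a strain. Between the strains for these weeks the values were -0.01 to 0.18, and for DBA/2 9 w against other DBA/2 groups 0.02 to 0.20. The fit has no block, and calls that the replicate block changes are given beside the results. The study's methods name no test for the arrays. An exception to the naming is 1 gene, counted in its list and not reported here.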

Additional observations from a re-analysis of the deposited data

Results flagged for a closer look

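The change from 0 w differed between DBA/2 and B6 mice, by limma's test of the difference itself, in the following cases, given as the DBA/2 change minus the B6 change on the log2 scale. Over the mean of 4 w and 8 w it was 2.34 for Fcgr1, 1.09 for Fcgr4, 1.07 for Fcgr3, 0.80 for Tyrobp and 0.49 for Fcer1g. At 2 w it was 1.49 for Fcer1g and -0.95 for Fcgr2b, against the single B6 sample of that week. At 4 w it was 2.76 for Fcgr1, 1.54 for Fcgr3, 1.13 for Tyrobp, 1.02 for Fcgr4 and 0.51 for Fcgr2b. At 8 w it was 1.93 for Fcgr1, 1.15 for Fcgr4, 0.59 for Fcgr3, 0.55 for Fcer1g and 0.47 for Tyrobp. At 9 w it was 1.38 for Fcgr1 and 0.49 for Fcer1g, against the single B6 sample of that week. No group held enough samples to test whether 1 of them stood apart from the rest.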

How the results depend on the processing

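Across 35 alternatives, 5313 values of the 7 genes were recomputed. Of these, 4980 kept their direction and side of the threshold (63 of them changed sign with neither value past it), 256 lost a call, 60 gained one and 17 reversed. Every reversal came with the deposited table without scaling, which moved the median of all probes to -0.22 in DBA/2 mice, 0.45 in B6 mice and -0.64 for the strain difference. There the strain difference of the change to the mean of 4 w and 8 w was -0.50 for Fcgr2b, -0.12 for Fcer1g and -0.48 for Hcst. At 8 w it was -0.60 for Fcgr3, -0.035 for Fcgr4, -0.64 for Fcer1g and -0.72 for Tyrobp, and at 9 w -0.63 for Fcgr3, -0.40 for Fcer1g and -0.76 for Tyrobp. The DBA/2 level minus the B6 level became 0.80 for Fcgr4, 0.18 for Fcer1g, 0.56 for Tyrobp and 0.72 for Hcst at 0 w, 0.69 for Fcgr4 and 0.66 for Tyrobp at 2 w, and 0.58 for Fcer1g at 4 w. Genes whose change differed between strains were 3 instead of 5.

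With normexp background correction 62 calls were lost. Genes called were 2 of 5 in B6 mice and 2 of 5 for the strain difference, and pairs of gene and week were 13 of 25 in DBA/2 mice, 3 of 17 in B6 mice, 3 of 14 for the strain difference, 10 of 18 between strains and 6 of 14 between neighbouring weeks. It moved the median of all probes to -0.32 in B6 mice and 0.23 for the strain difference. The mean over a gene's detected probes left 3 genes called in B6 mice. Strain differences by week were 8 without the filter on dim probes and 8 with outlier spots kept. The cause was not tested.

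Leaving out 1 replicate at a time gave 6 to 7 genes in DBA/2 mice, 4 to 5 in B6 mice and 4 to 5 for the strain difference. By week it gave 20 to 25, 15 to 17 and 9 to 14 pairs, the 9 without DBA/2 0 w replicate 2, then 17 to 18 between strains and 12 to 15 between neighbouring weeks. Without the only sample of B6 2 w or B6 9 w the counts by week in B6 mice and for strain differences could not be given. The strain difference of Fcgr2b at 4 w was lost without either replicate of B6 0 w, 4 w or 8 w or of DBA/2 0 w, or without DBA/2 4 w replicate 1 (adjusted p = 0.0511 to 0.117). That of Fcer1g at 9 w was lost without either replicate of B6 0 w, 4 w or 8 w or of DBA/2 2 w, 4 w or 8 w, or without DBA/2 0 w replicate 2 or DBA/2 9 w replicate 1 (adjusted p = 0.0583 to 0.126).

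With the replicate block 7, 6 and 5 genes were called in DBA/2 mice, in B6 mice and for the strain difference, and 25, 20 and 18 pairs by week, 21 between strains and 16 between neighbouring weeks. No call was lost and 13 were gained. With the slide as a block 112 of the 161 values could be fitted. Of these 7 lost a call and 4 gained one, and the genes called were 7, 4 and 4. The averaged arrays of B6 0 w replicate 2 were on different slides, and a block gives each sample a single slide. What the losses owe to the slide was therefore not tested. Lost for the averaged weeks (4 w with 8 w) were Fcgr2b in B6 mice and the Fcer1g difference between strains. Also lost were the 8 w differences between strains of Fcer1g and Tyrobp, Fcer1g at 9 w and Hcst at 8 w in B6 mice, and the level of Hcst between strains at 9 w (adjusted p = 0.0526 to 0.0978). Counts over pairs could be fitted for B6 mice alone.

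Over all probes, calls in DBA/2 mice, in B6 mice and for the strain difference numbered 5233, 3435 and 3023. They were 584, 179 and 90 with normexp, 3053, 1626 and 1259 without the filter on dim probes, and 3703, 2136 and 1734 with outlier spots kept. Unscaled values gave 9374 in B6 mice and 9195 for the strain difference, the slide block 1266 and 1739, and B6 mice fitted alone 2126. Leaving out 1 sample of 0 w lowered them to 3092 or 3062 in DBA/2 mice, 1704 or 1837 in B6 mice, and 1806 to 1931 for the strain difference.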
